A study of Mus musculus with 4 samples.

Results

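Mitotic mesenchymal cells were followed in embryoid bodies, spheres of differentiating cells grown from R1, a line of mouse embryonic stem cells. A cell was taken as mitotic mesenchymal when it met 4 limits on its UMIs (unique molecular identifiers, each standing for 1 captured transcript). At least 500 genes were detected, at most 15% of the UMIs came from mitochondrial genes, the collagen genes Col1a1, Col1a2 and Col3a1 had at least 5 UMIs together, and Mki67, Top2a, Cenpf, Ube2c, Ccnb1 and Hmmr together had at least 15 per 10000. This rule found 1401 cells, which were 11.9% of the 11753 collagen-positive cells and 10.1% of the 13808 cells that passed the limits on genes and mitochondrial UMIs. There were 4 droplet libraries, with 1 library per group: Nx8 (8 d in normoxia), Hx8 (7.33 d in normoxia and then 16 h in hypoxia), Nx10 (10 d in normoxia) and Hx10 (8 d in normoxia and then 48 h in hypoxia). The labels do not state the oxygen level. Values are listed in the order Nx8, Hx8, Nx10 and Hx10, levels are CPM (counts per 1000000 UMIs of the summed cells), and the cells under the mitotic limit are called the other collagen-positive cells. With 1 library per group, differences between cultures could not be measured, no test between groups was made, and the 95% intervals cover counting error only.

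A dividing cell copies its DNA in S phase and, after a gap called G2, condenses its chromosomes, attaches them to a spindle of microtubules and separates them in mitosis. Cyclin B with the kinase Cdk1 drives entry into mitosis, the kinetochore and its checkpoint hold the cell until the chromosomes are attached, and the anaphase-promoting complex then marks securin and cyclin B for destruction. Many genes of G2 and mitosis are transcribed together and are low in resting cells. Mesenchymal cells of embryoid bodies produce collagen and arise largely from mesoderm.

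The 6 marker genes have different tasks in this sequence. Mki67 encodes the protein that coats mitotic chromosomes, Top2a the enzyme that untangles DNA, Cenpf a kinetochore protein, Ube2c the ubiquitin-conjugating enzyme of the anaphase-promoting complex, Ccnb1 cyclin B1 and Hmmr a spindle protein. Their promoters are shown because the markers are read together by the rule and because CCAAT boxes and the cell cycle homology region (CHR) are known elements of genes of G2 and mitosis. The 200 bases before the start of each gene are given 5′ to 3′ on the gene's strand (RefSeq, GRCm38.p6), with capitals marking CCAAT or its reverse complement ATTGG, and TTTGAA or TTCGAA on either strand (TTCAAA is the reverse complement of the first).
Mki67, chr7:135716380-135716579, minus strand: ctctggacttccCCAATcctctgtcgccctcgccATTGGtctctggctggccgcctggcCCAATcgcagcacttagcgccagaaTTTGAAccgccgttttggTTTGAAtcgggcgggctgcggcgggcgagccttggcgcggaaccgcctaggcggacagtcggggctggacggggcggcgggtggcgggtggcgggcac
Top2a, chr11:99024190-99024389, minus strand: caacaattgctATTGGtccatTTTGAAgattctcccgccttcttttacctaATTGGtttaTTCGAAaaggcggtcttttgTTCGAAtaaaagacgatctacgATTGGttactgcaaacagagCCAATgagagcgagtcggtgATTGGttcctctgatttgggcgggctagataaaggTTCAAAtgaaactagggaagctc
Cenpf, chr1:189688087-189688286, minus strand: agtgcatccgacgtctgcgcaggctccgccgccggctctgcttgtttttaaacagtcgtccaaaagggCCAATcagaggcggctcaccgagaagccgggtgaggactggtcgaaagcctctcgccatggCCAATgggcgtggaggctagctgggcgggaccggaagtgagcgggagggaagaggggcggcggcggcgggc
Ube2c, chr2:164769729-164769928, plus strand: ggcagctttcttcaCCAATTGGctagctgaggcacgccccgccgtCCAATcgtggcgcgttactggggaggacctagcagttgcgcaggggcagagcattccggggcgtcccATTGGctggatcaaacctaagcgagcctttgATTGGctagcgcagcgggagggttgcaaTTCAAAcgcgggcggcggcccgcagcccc
Ccnb1, chr13:100786487-100786686, minus strand: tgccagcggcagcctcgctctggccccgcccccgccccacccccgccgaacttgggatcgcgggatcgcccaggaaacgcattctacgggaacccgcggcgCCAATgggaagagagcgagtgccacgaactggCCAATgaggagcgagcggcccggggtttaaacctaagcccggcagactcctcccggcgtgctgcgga
Hmmr, chr11:40733438-40733637, minus strand: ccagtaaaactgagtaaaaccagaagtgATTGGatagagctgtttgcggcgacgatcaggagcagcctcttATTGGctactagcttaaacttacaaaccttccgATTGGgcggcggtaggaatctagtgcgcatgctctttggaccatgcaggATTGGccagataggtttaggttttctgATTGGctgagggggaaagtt

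In the 250 bases before the start, all 6 marker genes held at least 2 copies of CCAAT, counted on both strands, with 6 copies in Top2a and in Ube2c and 2 in Cenpf and in Ccnb1. The CHR letters were in 3 of the 6, Mki67, Top2a and Ube2c. Among the 70 genes with a listed promoter of the 87 genes in 6 lists of mitotic genes, 68.6% held CCAAT against 37.5% of all 27025 genes of the table, and 38.6% held at least 2 copies against 11.5%. The CHR letters were in 44.3% of them against 19.6%, and both elements in 34.3% against 7.001%. For 31 matched genes of S phase the shares were 58.1% for CCAAT, 35.5% for at least 2 copies of it and 16.1% for the CHR letters. These are matches of letters, with no measure of binding.

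Since the rule used the 6 markers, their levels are a description of what was selected. The lowest members stood at 15.03, 15.04, 15.07 and 15.03 marker UMIs per 10000 and the highest cells under the limit at 14.99, 14.97, 14.95 and 14.81. There was no gap at the limit: 225, 144, 96 and 77 collagen-positive cells stood between 10 and 15, and 138, 101, 85 and 33 members between 15 and 20. The median member had 25.1, 25.3, 27.6 and 28.1 marker UMIs per 10000, and the highest 74.0, 75.9, 96.7 and 88.1. Among the other collagen-positive cells, 34.9%, 46.7%, 59.5% and 65.5% had no UMI of any of the 6. The limit therefore cut a continuous range of marker levels.

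The members had more UMIs per cell than the other collagen-positive cells. Their median was 33478.5, 26305, 30179.5 and 20258 UMIs per cell, 1.53, 1.43, 1.54 and 1.39 times that of the others. All members of a library together held 18071647, 11327553, 11651987 and 3861912 UMIs, so levels in Hx10 members rest on the fewest counts. Hx10 also stood apart in its make-up: mitochondrial genes took a median of 0.631% of a member's UMIs there against 1.70% to 4.10% in the other 3 libraries, and genes of ribosomal proteins took 27.0% of the members' UMIs against 16.9% to 18.2%. The part of this difference in the results below was not tested. Of all barcodes, 15 were shared between libraries over all pairs, and 0 of these were members.

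The collagens were well above background in most members, with a median of 165, 140.5, 192 and 48 UMIs of the 3 genes per cell. The limit of 5 UMIs was also reached by cells that should lack collagen: cells with strong macrophage markers had a median of 4, 2, 1 and 0 collagen UMIs, and 22 of 52 such cells in Nx8 reached 5. With strong erythroid markers 24.3%, 23.6%, 18.8% and 33.3% reached 5, and with strong endoderm markers 21.7%, 20.5%, 6.52% and 18.2%. Of 27 cells with strong megakaryocyte markers in Hx10, 21 reached 5, with a median of 120. In Nx8, 5 macrophage, 9 erythroid, 11 endoderm and 1 megakaryocyte cells of this kind were members. Only 19, 6, 6 and 17 members had fewer than 10. Some defining markers of other cell types were low in the members: C1qa of macrophages was at 0 to 4.55 CPM, Pecam1 of endothelium at 1.77 to 3.43 and Cdh5 at 0 to 0.277. Other genes of the same lists were higher. Of the endothelial list Tek was at 68.4 to 156 CPM, Egfl7 at 16.8 to 57.7 and Kdr at 1.29 to 44.9. Of the macrophage list Tyrobp was at 2.38 to 14.2 CPM. Summed over its list, the macrophage level was 11.7 to 69.6 CPM, the endothelial level 89.3 to 249.95, the cardiomyocyte level 51.7 to 119, the endoderm level 3.37 to 299 and the erythroid level 2.85 to 524. The neural level was 10.6 to 45.3 CPM, the megakaryocyte level 4.94 to 15.02 and the pluripotent level 3.71 to 14.6. Among the higher genes of these lists, in Nx8 members Hba-x was at 193 CPM, Hbb-y at 164, Tek at 156, Spink1 at 126 and Ttr at 115. The part of such RNA in the results was not tested.

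The share of the collagen-positive cells past the mitotic-marker limit was 17.9% in Nx8 (492 of 2754 cells, exact binomial interval 16.5 to 19.3%), 13.1% in Hx8 (384 of 2922, 11.9 to 14.4%), 14.9% in Nx10 (356 of 2382, 13.5 to 16.4%) and 4.57% in Hx10 (169 of 3695, 3.92 to 5.30%). It is a share of cells high in the markers, and the part of them in mitosis itself was not measured. Hx10 was the lowest by far, 10.4 percentage points below Nx10, a share 3.27 times smaller. The 16 h library stood 4.72 points below its normoxic partner, a ratio of 0.736. The intervals of Nx10 and Hx8 overlapped. With every cell thinned to 5000 UMIs, which left out 70, 166, 162 and 619 shallower cells, the shares were 18.4%, 12.8%, 14.6% and 4.81%, and the Hx10 share was 3.04 times below that of Nx10. When every cell with 3 or more UMIs of any list of another cell type was left out, 41, 103, 59 and 100 members were kept. The Nx8 and Hx8 shares were then 9.11% (6.62 to 12.2%) and 9.94% (8.19 to 11.9%), so their order changed but their intervals overlapped. Hx10 was again the lowest at 3.46%. This limit is on UMIs per cell, which were more in the members. In Nx8, 83.7% of the members and 72.7% of the others reached it for the endothelial list. Among the cells with fewer than 5 collagen UMIs, which the rule did not take, the share past the same mitotic limit was 14.5% (60 of 414), 12.5% (53 of 423), 15.8% (47 of 297) and 3.58% (33 of 921). The low share in Hx10 was thus seen in cells on either side of the collagen limit.

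**Figure D1:**
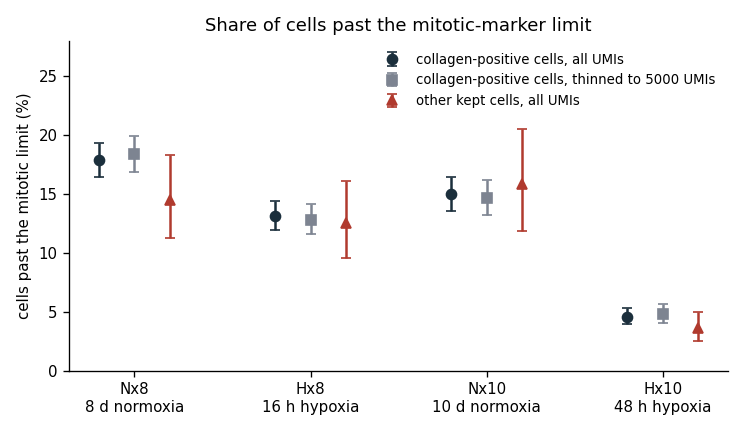
Share of cells past the mitotic-marker limit (%, y axis) in each library (x axis), for collagen-positive cells with all UMIs, collagen-positive cells thinned to 5000 UMIs and the other kept cells; bars are exact 95% binomial intervals and cover counting error only. The Hx10 points lie between 3.58% and 4.81%, below every other library, whose points lie between 12.5% and 18.4%.

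The mixture of the 6 markers differed in Hx10. Mki67 was at 374, 344, 517 and 130.0 CPM in the members, the lowest in Hx10. Ube2c was at 592, 637, 507 and 949 CPM and Ccnb1 at 194, 203, 191 and 335 CPM, both highest in Hx10. Top2a stood at 898, 774, 1147 and 825 CPM, Cenpf at 476, 558, 542 and 302 CPM and Hmmr at 212, 276, 323 and 365 CPM. Of all UMIs of the 6 genes, Mki67 held 13.6%, 12.3%, 16.0% and 4.47%, and Ube2c 21.6%, 22.8%, 15.7% and 32.7%. The shares of the 6 add up to the whole, so a smaller share of 1 gene is taken up by the others.

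**Figure D2:**
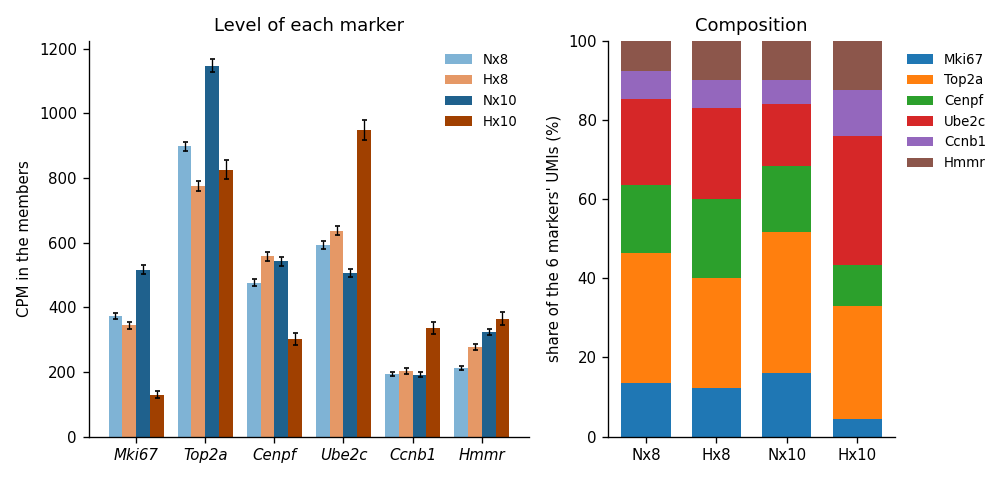
Left: level of each of the 6 marker genes in the members (CPM, y axis) by library, with exact 95% Poisson intervals as error bars. Right: share of each gene in the UMIs of the 6 (%). In Hx10 Ube2c holds 32.7% and Mki67 4.47%, against 15.7% and 16.0% in Nx10.

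Between Hx10 and Nx10 members the log2 ratio of CPM + 1 (the scale of all log2 values here) was -1.98 for Mki67 (interval of the plain ratio -2.12 to -1.86), -0.84 for Cenpf and -0.47 for Top2a. It was 0.90 for Ube2c (0.85 to 0.97) and 0.80 for Ccnb1 (0.71 to 0.90), while Hmmr was at 0.17. The members were chosen by the sum of the 6, so a cell low in Mki67 passes the limit only when other markers are higher, and opposite directions among the 6 are favoured by the selection itself. The other collagen-positive cells gave -2.01, 0.83 and 0.15 for Mki67, Ube2c and Ccnb1. After 16 h none of the 6 differed by 1.5-fold in the members, with log2 ratios from -0.21 for Top2a to 0.38 for Hmmr, and the signs of Mki67 and Top2a turned with another scaling (TMM, 0.10 and 0.00).

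Marker level among the members was compared in 3 classes, 15 to 25, 25 to 40 and over 40 marker UMIs per 10000, since the libraries differed in how far their members stood above the limit. In Nx10 members Mki67 was at 379, 519 and 725 CPM from the lowest to the highest class, and in Hx10 members at 88.3, 141 and 259. Ube2c was at 213, 489 and 975 CPM in Nx10 and at 629, 1117 and 1680 in Hx10. Ccnb1 was at 91.9, 207 and 327 CPM in Nx10 and at 188, 387 and 746 in Hx10. These 3 genes set the class together with the other markers, so at a given sum a lower level of 1 comes with higher levels of others, and their directions within a class are a description. Cdc20, the activator of the anaphase-promoting complex, was not used by the rule. It was higher in Hx10 in each class, at 107, 179 and 296 CPM in Nx10 and at 189, 359 and 596 in Hx10. Since it rose with the markers, the rule holds its level in part as well. In collagen-positive cells under the limit, with 5 to 15 marker UMIs per 10000, Cdc20 was at 97.1 CPM in Nx10 and 95.9 in Hx10. The summed level of the S phase genes fell along the 3 classes in Nx8, Hx8 and Nx10. It was 2904, 2393 and 1842 CPM in Nx8, 1784, 1647 and 1405 in Hx8 and 3746, 2857 and 2006 in Nx10. In Hx10 it was 1284, 1100 and 1142 CPM, below every class of Nx10. In the collagen-positive cells with 5 to 15 marker UMIs per 10000 it was 3302, 2041, 3585 and 1080 CPM. The members were not sorted by phase, and the rule does not tell S phase, G2 and mitosis apart. The top class of Hx10 held 28 cells.

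**Figure D3:**
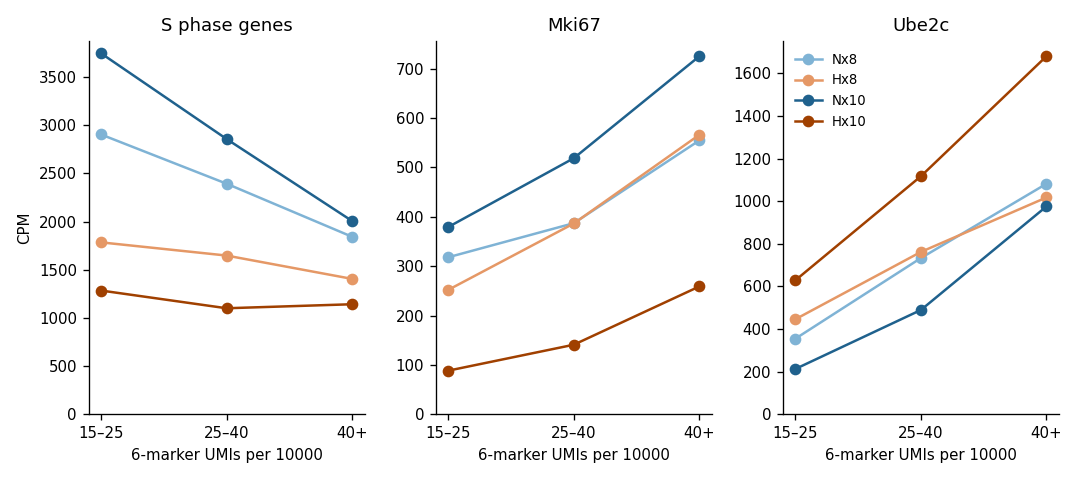
Levels in the members (CPM, y axis) by class of marker UMIs per 10000 (x axis), for the summed S phase genes, Mki67 and Ube2c, with 1 line per library and no error drawn. The S phase genes are lower in Hx10 than in Nx10 within each of the 3 classes, and Mki67 and Ube2c, which the classes are cut on, lie on opposite sides.

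Against the other collagen-positive cells of the same library, the members were higher in nearly every mitotic gene. This is the contrast the rule itself makes, so the values are a description. Among 6630 genes whose mean reached 20 CPM, 152 exceeded the others 2-fold in all 4 libraries (2.29%), and 2 fell short of them as far (0.0302%). For lists the limits were a mean of 5 CPM and a 1.5-fold difference, which 3.6% of 10456 genes met upward and 0.296% downward in all 4 libraries. Of the kinases and cyclins of mitotic entry 16 of 18 were higher in all 4, of the anaphase-promoting complex and securin 6 of 6, of the kinetochore and checkpoint 18 of 18, of the passenger complex and cytokinesis 14 of 14, of spindle motors and microtubule proteins 19 of 19 and of chromosome condensation and lamina 11 of 12. The spindle list had median log2 ratios of 2.50, 3.09, 3.55 and 3.68, and the kinetochore list 2.15, 2.71, 3.35 and 3.40. The medians were lowest in Nx8, where the other collagen-positive cells had the most marker UMIs.

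The genes outside the rule with the highest mean ratio were led by proteins of the spindle and its midzone. Nusap1, which bundles spindle microtubules, stood at 4.27 and was at 311, 279, 332 and 199 CPM in the members and 25.1, 17.1, 10.8 and 6.52 CPM in the others. Prc1, which crosslinks the midzone, stood at 4.08, Aspm of the spindle poles at 3.95, the kinase Aurka at 3.93 and Sgo2a, which protects centromere cohesion, at 3.80. The kinase Plk1 stood at 3.72, the motors Kif23 and Kif11 at 3.71 and 3.69, the kinetochore motor Cenpe at 3.67 and Depdc1a, Ckap2l and Cdca2 at 3.83, 3.65 and 3.61. Members and others thus differed about as much in these genes as in the markers, which stood at 3.65 for Top2a and 4.42 for Cenpf.

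At the lower end were the globin genes Hbb-y and Hba-x at -1.90 and -1.89, the histone gene Hist1h2bc at -1.20, the heat shock gene Hspb1 at -0.87 and the stress factor Atf3 at -0.78. Hba-a1 was also among them, and Ctla2a, Nradd, Nkain4, Htra1 and Ptgs2 stood between -1.37 and -0.94. Globin is red cell RNA. Hbb-y was at 164, 120.4, 1.54 and 1.04 CPM in the members, so it was nearly absent at day 10. Collagen and matrix lists were close to the others, with medians of -0.13, -0.13, -0.22 and -0.02 for the 3 collagens and -0.15, -0.11, -0.32 and -0.12 for fibroblast matrix genes. Smooth muscle genes had medians of -0.35, -0.30, -0.45 and -0.56.

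S phase genes separated members from others much less than mitotic genes did. Their medians were 0.22, 0.71, 0.98 and 1.07, and 12 of 42 were higher and 1 lower in all 4 libraries. The summed S phase level was 2574, 1681, 2999 and 1196 CPM in the members and 2148, 1046, 1421 and 539.9 CPM in the others. In Nx8 the others were close to the members, while in the 3 other libraries they were lower.

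After 16 h of hypoxia few genes of the mitotic lists differed in the members. Since the rule holds the markers above a limit in each library, levels of genes that go with them are held in part as well. Across the 10431 genes that averaged 5 CPM or more, 5.85% stood 1.5-fold or more above Nx8 in Hx8 members and 10.3% below. Of the mitotic entry list 0 of 18 differed that far, of the anaphase-promoting list 0 of 6, of the passenger list 0 of 14, of the spindle list 0 of 19 and of the condensation list 0 of 12. The kinetochore list had 1 of 18 lower, Cenpm, which was at 31.7, 13.9, 46.4 and 5.18 CPM. The medians of these 6 lists lay between -0.16 and 0.10, and with TMM the condensation median turned to 0.06 and the kinetochore median to 0.20. In the other collagen-positive cells 10.7% of genes were lower. There, 10 of 18 entry genes, 3 of 6 anaphase-promoting genes and 11 of 18 kinetochore genes were lower. So were 5 of 14 passenger genes, 10 of 19 spindle genes and 9 of 12 condensation genes. The list medians lay from -0.68 to -0.51. Levels in these cells also depend on how many of them stood just under the mitotic limit. Those at 5 to 15 on its scale were 512 of 2262, 373 of 2538, 219 of 2026 and 211 of 3526. The part of these cell numbers in any comparison of the other cells was not tested.

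S phase genes, which the rule did not use, were lower in Hx8 members. Rrm2, a subunit of the reductase that makes deoxynucleotides, was at 78.2, 29.9, 107 and 11.4 CPM in the members. Mcm6, part of the replicative helicase, was at 48.4, 21.3, 59.4 and 9.58 CPM, and Pcna, the sliding clamp of DNA polymerase, at 77.2, 39.1, 92.1 and 25.1 CPM. All 3 were lower in each hypoxic library than in its normoxic partner. The log2 ratios at 16 h were -1.36 for Rrm2 (-1.56 to -1.21), -1.15 for Mcm6 (-1.40 to -0.98) and -0.96 for Pcna (-1.14 to -0.83). Measured were 40 of the 42 listed S phase genes: 22 passed 1.5-fold downward and 0 upward, with a median of -0.63 beside -0.08 over all genes. In the others 35 were lower and the median was -1.09.

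After 48 h more genes were lower than higher in the members on the CPM scale. Across the same 10431 genes, 41.1% stood 1.5-fold or more below Nx10 in Hx10 members and 13.3% above, and the median of all genes was -0.38. TMM scaling moves that median to -0.02 (and the 16 h median to 0.13), so the lists are read beside it. The mitotic lists did not move as a block. The kinetochore list had 11 of 18 genes lower and 1 higher (median -0.66) and the condensation list 8 of 12 lower and 0 higher (-0.76). The entry list had 4 of 18 lower and 3 higher (-0.14), the anaphase-promoting list 1 of 6 lower and 2 higher (-0.07), the passenger list 1 of 14 lower and 1 higher (-0.24) and the spindle list 5 of 19 lower and 2 higher (-0.25). With TMM scaling the medians of the last 4 lists turn to 0.23, 0.30, 0.12 and 0.13, while the kinetochore and condensation medians are -0.29 and -0.39. In the other collagen-positive cells the CPM medians were -0.84 for the kinetochore list and -0.74 for the condensation list. Their entry, anaphase-promoting, passenger and spindle medians were -0.31, -0.49, -0.45 and -0.41, beside -0.43 over all genes.

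**Figure D4:**
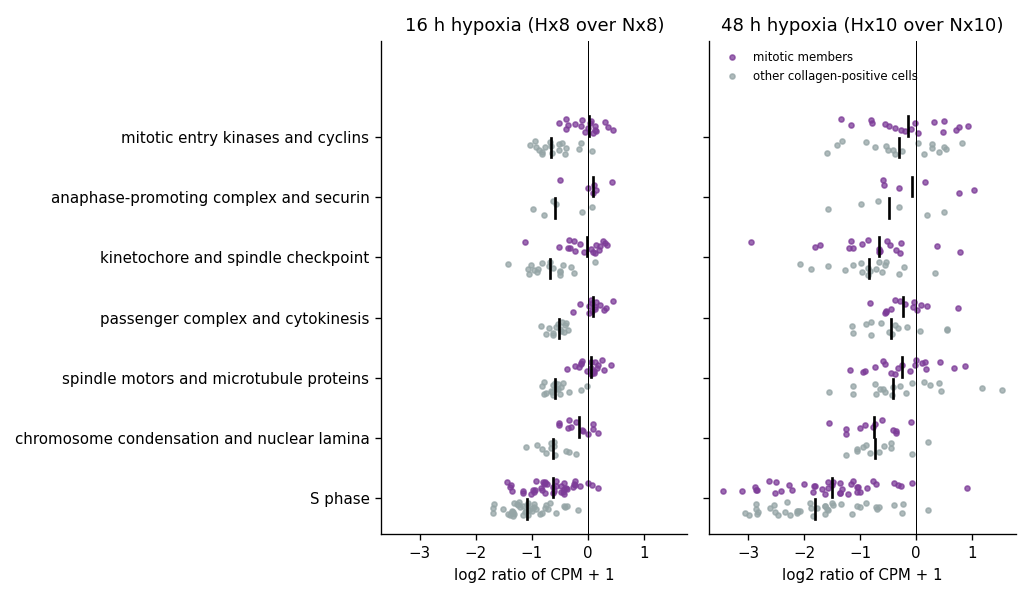
Log2 ratio of CPM + 1 (x axis) of each gene of the 6 mitotic lists and the S phase list, at 16 h (left) and 48 h (right), in the members and in the other collagen-positive cells; black bars are list medians. At 16 h the mitotic lists of the members centre near 0 with S phase at -0.63, and at 48 h the S phase median is -1.50.

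Within these lists, single genes stood on different sides in Hx10: of the kinases of the entry list, Aurka and Wee1 passed 1.5-fold upward and Pkmyt1, Mastl and Melk downward. Cdc20 was at 199.6, 213, 181 and 306 CPM, and Ube2s, which extends ubiquitin chains for the same complex, at 478, 526, 444 and 902 CPM. Both were highest in Hx10, with log2 ratios of 0.75 (0.65 to 0.86) and 1.02 (0.96 to 1.09). The kinase Aurka was at 96.4, 124, 98.7 and 169 CPM, Wee1, the kinase that restrains Cdk1, at 59.9, 54.8, 54.0 and 103 CPM, and Ect2, which starts the cleavage furrow, at 138, 172, 169 and 285 CPM, again highest in Hx10. The spindle protein Ckap2 was at 109, 92.8, 141 and 259 CPM. By contrast Cdk1 was nearly level, at 383, 408, 388 and 396 CPM, and its partner Ccnb2 was at 147, 163, 153 and 134 CPM, with a log2 ratio of -0.19 that TMM turns to 0.18. Plk1 was at 132, 132, 126 and 96.8 CPM, lowest in Hx10, with a log2 ratio of -0.37 that is 0.00 with TMM, and securin, Pttg1, at 85.8, 86.2, 96.1 and 77.4 CPM (-0.31, with TMM 0.06).

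Many genes of the kinetochore and of chromatin were lower in Hx10 members, and the medians of both lists were also lower in the other collagen-positive cells. Cenpm, of the inner kinetochore, was at 46.4 and 5.18 CPM in Nx10 and Hx10, a log2 ratio of -2.94 (-3.89 to -2.52). Spc25 and Nuf2, both of the complex that grips microtubules, were at 176, 123, 172 and 48.2 CPM and 49.9, 39.6, 63.9 and 27.2 CPM, and Knl1, their scaffold, at 108, 119.6, 162 and 48.9 CPM. Each of these 4 was lowest in Hx10. In the condensation list the condensin subunit Smc2 was at 278, 279.9, 357 and 149 CPM, the histone variant H2afz at 1497, 1042, 1423 and 482 CPM and the chromatin protein Hmgb2 at 1875, 1318, 1584 and 836 CPM. H2afz was also lower in Hx8 than in Nx8, whereas Smc2 was nearly equal there. The kinase Melk was at 78.6, 59.7, 73.4 and 28.5 CPM and the motor Kif14 at 44.8, 55.1, 57.5 and 24.9 CPM.

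The difference in S phase genes was larger at 48 h. Of the 40 measured genes, 35 passed 1.5-fold downward in Hx10 members and 1 upward (Cdt1, named after its value was seen), with a median of -1.50 (-1.15 with TMM). The log2 ratio was -3.12 for Rrm2 (-3.69 to -2.79), -2.51 for Mcm6 and -1.83 for Pcna. Tk1, the thymidine kinase, was at 42.0, 18.2, 85.7 and 6.99 CPM, lowest in Hx10. In the other collagen-positive cells, where 42.7% of all genes were lower, 36 were lower and the median was -1.80. Histone genes split: 9 of 14 were lower and 3 higher in the members. Hist1h1b, a linker histone, was at 366, 318, 795 and 98.7 CPM (-3.00), while Hist1h2bc was at 31.3, 46.9, 26.3 and 128 CPM (2.24) and Hist1h4i at 13.2, 18.7, 13.4 and 76.4 CPM (2.43). Copies of a histone are alike in sequence, so reads may be split among them. In the other cells 6 were higher and 4 lower, with a median of 0.50 where the members had -1.19.

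Among the inhibitors of the cycle, 5 of 15 passed 1.5-fold upward and 1 downward at 16 h, and 7 were higher and 4 lower at 48 h. Over all genes 5.85% were higher and 10.3% lower at 16 h, and 13.3% higher and 41.1% lower at 48 h. Cdkn1a, which encodes p21, was at 68.2, 78.3, 100.5 and 213 CPM, highest in Hx10, with a log2 ratio of 1.08 (0.95 to 1.21). Ccng2, an atypical cyclin that restrains division, was at 20.5, 72.1, 21.8 and 60.1 CPM and Cdkn1b, encoding p27, at 64.3, 120.4, 63.9 and 102 CPM. Both were higher in each hypoxic library than in its partner, as was Cdkn2b at 22.3, 39.6, 15.8 and 54.1 CPM. Rbl1 was at 31.4, 16.8, 36.3 and 6.47 CPM and Ccnd1, cyclin D1 of early G1, at 14.5, 4.68, 10.0 and 1.81 CPM, both lower in each hypoxic library. Cdkn1c, encoding p57, was at 459, 401, 492 and 294 CPM, lowest in Hx10. In the other collagen-positive cells 6 inhibitors were higher and 3 lower at 48 h, and the difference between these cells and the members was not tested.

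Several stress genes were also higher at 48 h. Of 15 measured targets of p53, 0 were higher and 3 lower at 16 h, and 7 were higher and 1 lower at 48 h (median 0.56). Beside this and the next list, 5.85% of all genes were higher and 10.3% lower at 16 h. At 48 h, 13.3% of all genes were higher and 41.1% lower. Bbc3, which promotes cell death, had a log2 ratio of 2.17 and Mdm2, the ligase that degrades p53, 1.03. Of 13 measured genes of the integrated stress response, 5 were higher at 16 h and 9 at 48 h. Atf4, its central transcription factor, was at 58.4, 91.0, 60.6 and 254 CPM, Ddit3, a factor induced by it, at 18.8, 40.2, 15.3 and 128 CPM, and Nupr1 at 13.0, 35.6, 30.0 and 233 CPM. All 3 were higher in each hypoxic library, and highest in Hx10. The others had medians of 0.23 and 1.27 for the 2 lists at 48 h.

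Most listed genes of the known response to low oxygen were higher in the members of each hypoxic library than in its partner. Hypoxia-inducible factors (HIF) are transcription factors that are stabilised when oxygen is low and switch on genes of glycolysis, glucose uptake and vessel growth. Leaving glycolysis aside, 30 of 32 measured HIF targets passed 1.5-fold upward and 0 downward at 16 h (median 2.33), and 29 upward and 1 downward at 48 h (1.63). Among all genes of the members 5.85% were higher at 16 h and 13.3% at 48 h. In the others, where 4.57% and 10.8% of all genes were higher, 30 and 28 were higher, with medians of 2.08 and 1.29. Egln3, an oxygen-sensing hydroxylase, was at 7.14, 62.1, 8.93 and 54.1 CPM in the members, and Ndrg1 at 27.4, 229, 25.9 and 153 CPM. Vegfa, the vessel growth factor, was at 21.2, 80.5, 29.0 and 122 CPM and Slc2a1, a glucose transporter, at 318, 725, 145 and 704 CPM. For all 4 genes both hypoxic libraries lay above both normoxic ones. Ero1l, for folding in the endoplasmic reticulum, was at 30.8, 271, 35.2 and 154 CPM, Bnip3, for removal of mitochondria, at 42.3, 281, 45.4 and 137 CPM, and Pdk1, which keeps pyruvate out of the mitochondrion, at 25.3, 103, 23.3 and 60.3 CPM. These 3 were higher in Hx8 than in Hx10. Vegfa was higher in Hx10 than in Hx8.

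Glycolysis genes and mitochondrial transcripts differed in opposite directions. Of 16 glycolysis enzymes 13 were higher at each time, with medians of 1.74 and 1.18. Among all genes 5.85% were higher and 10.3% lower at 16 h, and 13.3% higher and 41.1% lower at 48 h. Pgk1 was at 348, 1881, 287 and 1554 CPM and Ldha, which makes lactate, at 472, 1785, 352 and 1211 CPM. Of the 13 transcripts of the mitochondrial genome 11 were lower at 16 h and 13 at 48 h, with medians of -1.23 and -2.19, and mt-Nd3, a subunit of complex I, was at 1165, 171, 1200.1 and 184 CPM. The other collagen-positive cells had medians of -1.15 and -2.03 for these transcripts. The limit of 15% mitochondrial UMIs is part of the rule, and it only sets an upper bound.

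**Figure D5:**
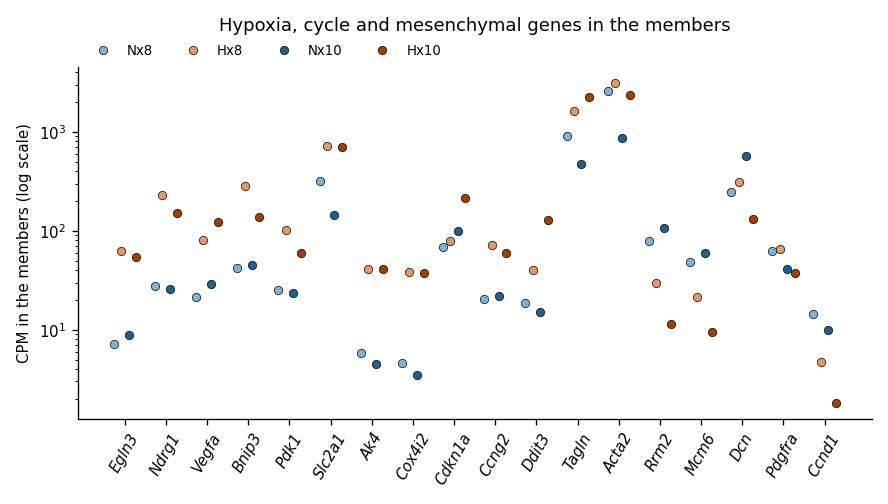
Level in the members (CPM, log scale, y axis) of hypoxia, cycle, stress and mesenchymal genes (x axis), with 1 point per library. For Egln3, Ndrg1, Vegfa, Bnip3, Pdk1, Slc2a1, Ak4 and Cox4i2 both hypoxic points lie above both normoxic points, and for Rrm2, Mcm6 and Ccnd1 both lie below.

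Of 6691 genes averaging 20 CPM or more, Hx8 members exceeded Nx8 members 2-fold in 144 (2.15%) and stood as far below in 61 (0.912%), beside 109 (1.63%) and 92 (1.37%) in the other collagen-positive cells. At 48 h, 401 were higher (5.99%) and 1409 lower (21.1%), beside 321 (4.8%) and 1404 (21%) in the others. With TMM the 48 h counts are 883 and 741, and the higher ones make up 54.4% of these in place of 22.2%. At 16 h they make up 91.1% in place of 70.2%. The 6 genes highest in both comparisons were Cox4i2, Ak4, Ndrg1, Egln3, Krt19 and Pgk1. Cox4i2, the subunit of cytochrome oxidase used in low oxygen, was at 4.65, 38.2, 3.52 and 37.0 CPM, Ak4, an adenylate kinase of mitochondria, at 5.81, 41.5, 4.55 and 41.4 CPM and the keratin Krt19 at 76.6, 418, 39.3 and 256 CPM. The 6 lowest in both were Rrm2, Sdk2, Shisa4, Pinx1, Gart and Jpt2. Gart, an enzyme of purine synthesis, was at 49.4, 20.2, 35.2 and 11.4 CPM and Sdk2, an adhesion protein, at 37.2, 13.4, 37.3 and 4.40 CPM, each lower in both hypoxic libraries.

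The 10 highest at 16 h were Ghrl, Ero1l, A2m, Ier3, Ndrg1, Ndrg2, Egln3, Tmem45a, H2-K1 and Ddit4, between 3.47 and 2.80. Ghrl, which encodes ghrelin, came from few cells: 6 members of Hx8 held all 1250 of its UMIs, and its sign turned in 2 of 7 alternatives. H2-K1, of antigen presentation, was at 9.30, 71.1, 17.6 and 29.0 CPM and Ddit4, an inhibitor of mTOR signalling, at 13.7, 101, 13.2 and 45.8 CPM. The 10 lowest were Spink1, Ttr, Ddx21, Emb, Mdn1, Pcp4, Sdk2, Odc1, Rrm2 and Shisa4. Ddx21 and Mdn1, which serve ribosome assembly, were at 79.6, 22.7, 65.6 and 35.2 CPM and 42.7, 15.2, 43.5 and 19.7 CPM, and Odc1, which starts polyamine synthesis, at 213, 80.8, 101 and 55.2 CPM. All 3 were lower in each hypoxic library than in its partner. Spink1 and Ttr, genes of endoderm, came mostly from few cells: 5 members held 87.7% and 83.8% of their UMIs in Nx8.

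The 10 highest at 48 h were C3, Neat1, Slc5a3, Cox4i2, Ddit3, Klf5, Slc2a3, Ak4, Nupr1 and Snhg1. C3, complement component 3, was at 0.498, 3.18, 3.09 and 75.1 CPM, Neat1, a long noncoding RNA of nuclear paraspeckles, at 22.7, 29.0, 22.1 and 241 CPM and Slc5a3, the inositol transporter that responds to osmotic stress, at 13.3, 13.6, 15.9 and 149 CPM. These 3 were high in Hx10 and low in the other 3 libraries, and in the others their log2 ratios were 2.34, 1.68 and 3.48. Snhg1, a host of small nucleolar RNAs, was at 80.4, 213, 109 and 796 CPM. The 10 lowest were Adam12, Unc5c, Hsd11b2, Rtl4, Tenm4, Nrxn3, Nhs, Nxpe4, Kdr and Rbfox1, between -6.11 and -4.17. Adam12, a metalloprotease of mesenchyme, was at 315, 209, 299.9 and 3.37 CPM and the netrin receptor Unc5c at 229, 167, 322 and 5.18 CPM. Hsd11b2, which inactivates glucocorticoids, was at 195, 105, 77.8 and 1.04 CPM, and all 3 were lowest in Hx10. Beside these, Kdr, a gene of the endothelial list, was at 43.4, 25.8, 44.9 and 1.29 CPM.

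Collagen and matrix genes of the members were lower in Hx10. Col1a1 was at 2088, 2325, 2505 and 1404 CPM, Col1a2 at 1199, 894, 2104 and 537 CPM and Col3a1 at 1906, 2101, 2107 and 1107 CPM, each lowest in Hx10, although the rule asked for these collagens. Of 17 measured genes of fibroblast matrix 13 were lower and 0 higher at 48 h (median -1.02), against 1 lower and 1 higher at 16 h (0.15). With TMM the 48 h median was -0.64. Among all genes 41.1% were lower and 13.3% higher at 48 h, with a median of -0.38. At 16 h, 10.3% of all genes were lower and 5.85% higher. Dcn, which encodes decorin, was at 247, 310.5, 574 and 133 CPM and Lum, lumican, at 426, 295, 487 and 83.4 CPM. Smooth muscle genes went the other way for some members: Acta2, smooth muscle actin, was at 2574, 3100.5, 861 and 2361 CPM and Tagln, transgelin, at 913, 1637, 472 and 2231 CPM. Hx10 was above Nx10 for both, and Nx10 was the lowest library. Of 11 measured smooth muscle genes 5 were higher and 2 lower at 48 h. The receptor Pdgfra was at 63.2, 66.2, 41.0 and 37.5 CPM, with a 48 h ratio of -0.12 that TMM turns to 0.24. Of 15 measured mesenchymal receptors and transcription factors, 7 were lower and 1 was higher (Msx2) at 48 h, a share of lower genes near the 41.1% of all genes. The other collagen-positive cells differed in the same directions. Their 48 h median was -1.52 for the collagens of the rule (members -0.93) and -1.17 for fibroblast matrix (members -1.02). It was -0.80 for the mesenchymal receptors and factors (members -0.55) and 0.76 for smooth muscle (members 0.22). The difference between these cells and the members was not tested.

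Each hypoxic library was set against normoxia of the same total time, so the 16 h and 48 h comparisons differ in age as well as in length of hypoxia, and these cannot be told apart. The difference of age itself was described between Nx10 and Nx8. In the members 178 of 6691 genes passed 2-fold upward at day 10 (2.66%) and 94 downward (1.4%), beside 152 (2.27%) and 174 (2.6%) in the others. At 1.5-fold, 8.13% of the 10431 genes were higher and 7.91% lower. The 6 mitotic lists held 0 to 2 genes past 1.5-fold each, with medians from -0.12 to 0.23, and the S phase list had 4 of 40 higher and 0 lower. In the other collagen-positive cells 15 of 18 entry genes, 16 of 18 kinetochore genes and 17 of 19 spindle genes were lower at day 10. Beside this, 11.1% of all genes were lower and 7.51% higher there. Of these cells, 512 of 2262 in Nx8 and 219 of 2026 in Nx10 stood just under the mitotic limit, at 5 to 15. The part of these cell numbers in the lower levels was not tested. Ppp2r2b, a regulatory subunit of a phosphatase, was at 29.4 and 61.2 CPM in Nx8 and Hx8 and at 238 and 12.9 CPM in Nx10 and Hx10. The age ratio was 2.97 for Ppp2r2b, 2.78 for the cadherin Cdh13, 2.72 for Lox, which crosslinks collagen, 2.59 for the potassium channel Kcnh7, 2.53 for the matrix protein Ogn and 2.53 for Fosb. Lowest were the globins Hba-x and Hbb-y (-6.92 and -6.02), Spink1 (-6.65, with -11.21 to -7.38 for the plain ratio, from 3 UMIs in Nx10), Ttr and Rbp4 of endoderm (-5.29 and -4.62) and Emb (-3.62), which are mostly genes of other cell types. Of 17 matrix genes 8 were higher and 2 lower at day 10. Dcn, already listed, was 1 of these, and it was then lower in Hx10 than in Nx8.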

How the data were processed

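The authors deposited 1 matrix of raw UMI counts per gene and cell barcode for each library, made with Cell Ranger 7.1.0 on mm10, per the file headers and the submitters' processing notes. The treatment of intronic reads is not stated there. Of 3374, 3489, 2802 and 4746 barcodes (Nx8, Hx8, Nx10, Hx10), 3168, 3345, 2679 and 4616 passed 500 genes and 15% mitochondrial UMIs. Gene IDs numbered 32285, and 32235 matched the annotation table.

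Counts of the members, and of the other collagen-positive cells, were summed per library and divided by their total to give CPM. Ratios are log2 of CPM + 1. Single genes were counted at 2-fold where they averaged 20 CPM or more, and lists at 1.5-fold from 5 CPM. Levels have exact Poisson intervals, shares exact Clopper-Pearson intervals and ratios exact conditional binomial intervals, at 95%. With 1 library per group there are no replicates, no p-value was computed, and the scripts were tested on simulated data. The members and lists were chosen with earlier results of these data known.

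Named genes were the 9 of the rule, the 12 highest and 12 lowest against the other cells, the 10 highest and 10 lowest of each hypoxia comparison, the 6 of each direction with the largest smaller ratio in both, the 6 highest and 6 lowest with age, up to 5 genes per list and a set named whatever its values. Symbols of mitochondrial genes outside their list, of ribosomal proteins and of unnamed models were left out. Of the genes this rule names, 1 is not reported here.

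The doublet caller Scrublet marked 5, 1, 9 and 1 cells, far below the 2.24% to 3.80% expected from the cell numbers, so its calls were not used. Whether doublets were removed before deposit is not stated. No cells were removed as doublets in the values reported. As an alternative, the 86, 93, 60 and 175 cells of highest score were removed. Other alternatives were TMM scaling, a pseudocount of 10 CPM, other filters on low genes, mitotic limits of 10 and 20 per 10000, and leaving out cells with UMIs of other cell types. TMM factors came from edgeR 4.0.16 in R 4.3.3, and the rest was computed with scipy 1.17.1, scanpy 1.11.5, pandas 2.3.3 and numpy 2.4.6 under Python 3.11.15.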

Additional observations from a re-analysis of the deposited data

How the results depend on the processing

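No paired analysis was possible because each group had 1 library, and for the same reason no replicate could be left out. Of 92 values recomputed under an alternative, 52 stayed within 1.5 times (counts of genes) or within the counting interval (shares). The other 40 follow, as genes at least 2-fold higher and lower. With TMM scaling, 21 genes were lower at 16 h, and 883 were higher and 741 lower at 48 h. With a pseudocount of 10 CPM, 0 genes were lower in the members than in the other cells, 22 were lower at 16 h and 929 at 48 h. With a mean of at least 50 CPM, which tests fewer genes, the counts were 78 and 1 for members against others, 93 and 23 at 16 h, 228 and 625 at 48 h, and 93 and 43 for age. With no filter (23348 genes) they were 341 and 534 at 16 h, 889 and 3829 at 48 h, and 602 and 614 for age.

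A mitotic limit of 20 per 10000 gave 4 genes lower in the members and shares of 12.9%, 9.69%, 11.4% and 3.68%, and a limit of 10 gave 26.0%, 18.1%, 19.0% and 6.66%. With cells of 3 or more UMIs of other types left out, the counts were 263 and 218 at 16 h and 291 and 193 for age. The shares were then 9.11%, 9.94%, 8.31% and 3.46%, where the order of Nx8 and Hx8 was reversed with overlapping intervals. Chosen after seeing the data, leaving out cells by defining markers alone gave 1 gene lower in the members and 13.0% in Nx10, and weighting each cell equally gave 0 genes lower. Hx10 had the lowest share under each alternative listed. Its 169 members and 3861912 UMIs limit the precision of every 48 h value, and genes under 20 CPM rest there on fewer than 100 UMIs. The cause of each difference was not tested.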

Other observations

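Genes of the epicardium, the surface layer of the heart, and of the mesothelium, which lines body cavities, were also measured in the members. Of 7 measured epicardial and mesothelial genes, 4 passed 1.5-fold upward and 0 downward at 16 h, and 3 were higher and 3 lower at 48 h, beside 5.85% and 10.3% of all genes at 16 h and 13.3% and 41.1% at 48 h, so the share of lower genes at 48 h was near that of all genes. The keratins Krt19, Krt8 and Krt18 were higher at both times, and Upk3b, Muc16 and Aldh1a2, which makes retinoic acid, were lower at 48 h. Krt8 was at 615, 1055, 151 and 311 CPM and Krt18 at 362, 753, 149.5 and 594 CPM, and Upk3b at 85.8, 127, 184 and 81.6 CPM.

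Genes lower in Hx10 members more often spanned a long stretch of the genome. Of the 1409 genes at least 2-fold lower at 48 h, 31.4% spanned over 100 kb from start to end (median 34.2 kb), against 11.5% of the 401 higher genes (30.6 kb) and 18.2% of all 6691 (30.7 kb). At 16 h the shares were 13.1% of the lower and 18.8% of the higher genes. The part of intronic reads in these counts was not tested.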
